A study of Mus musculus with 52 samples.

Results

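Phenobarbital (PB), a barbiturate that serves as the model inducer of liver drug metabolism and as a non-genotoxic hepatocarcinogen in mice, was followed in mouse liver at 4 h, 20 h, 14 days and 28 days. The arrays were chosen by their titles: the 4 arrays named PB were set against the 4 arrays named Saline, time by time, and as a check against 12 arrays of mice given saline as controls of ENU, DMN and DPN, 3 at each time. These 20 arrays are part of 52 in the whole series, which compared genotoxic with non-genotoxic hepatocarcinogens in order to find genes that tell them apart. All mice were male B6C3F1 hybrids of the same age, and the treated mice received a single intraperitoneal dose of 30 mg/kg. Each array held liver RNA pooled from 5 mice, so no array had a replicate and the spread between mice could not be measured. The Saline arrays also served as the controls of ethanol. Set and treatment cannot be told apart between the PB arrays and the ENU, DMN and DPN controls, which belonged to other sets.

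Phenobarbital acts on hepatocytes mainly through the constitutive androstane receptor CAR (gene Nr1i3). It blocks signalling from the EGF receptor, CAR moves into the nucleus and pairs with RXR, and the pair switches on genes for cytochrome P450 enzymes of the Cyp2b, Cyp2c and Cyp3a families, for conjugating enzymes and for transporters. Cyp2b10 is the classical mouse target, and its phenobarbital-responsive enhancer lies upstream of the region shown here. A related receptor, PXR (Nr1i2), shares many of these targets, and the heme that P450 enzymes need starts with the enzyme encoded by Alas1.

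The promoters of Cyp2b10, which gave the strongest result, and of its neighbour Cyp2b9 are shown as RefSeq gives them in the GRCm38.p6 build, from 250 bases before to 50 bases after the start of each gene on the plus strand of chromosome 7. Capitals mark TTGCNNAA, a motif of the C/EBP factors of liver. It stood 58 to 51 bases before the start in Cyp2b10 (chr7:25897408-25897707) and 180 to 173 bases before it in Cyp2b9 (chr7:26173159-26173458).
Cyp2b10: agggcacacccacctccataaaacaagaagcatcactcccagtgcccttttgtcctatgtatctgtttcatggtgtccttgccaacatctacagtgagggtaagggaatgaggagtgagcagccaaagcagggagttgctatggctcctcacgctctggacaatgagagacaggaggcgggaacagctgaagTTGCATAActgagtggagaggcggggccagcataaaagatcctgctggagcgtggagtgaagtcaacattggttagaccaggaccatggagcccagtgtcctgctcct
Cyp2b9: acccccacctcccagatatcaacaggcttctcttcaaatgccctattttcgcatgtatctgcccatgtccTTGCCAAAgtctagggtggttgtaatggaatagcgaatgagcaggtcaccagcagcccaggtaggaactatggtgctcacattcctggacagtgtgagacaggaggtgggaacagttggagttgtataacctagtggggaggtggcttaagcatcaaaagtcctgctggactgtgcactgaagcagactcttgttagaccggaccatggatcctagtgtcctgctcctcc
On both strands, TTGCNNAA had 1 match in each promoter, and 10.8% of 32851 mouse promoters of this length held it. AGGTCA, the half-site of nuclear receptors, had 1 match in Cyp2b9 and 0 in Cyp2b10, against 16.3% of all promoters, and TATAAA had 0 in both, against 13.6%. A match is a run of letters and was not tested as a binding site.

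Signals are given as log2 of the deposited intensity after each array was divided by its median, with a floor of 5.02 below which values were not resolved. Of 22626 probe sets, 15992 lay above the floor in at least 10 of the 20 arrays and were tested, and they gave 9641 genes. A probe set was called at a limma adjusted p under 0.05, with the spread taken from the 3 other saline controls within each time, so the lone PB and Saline arrays are assumed to vary like those. The median standard error was 0.35 for PB minus Saline. The array labelled PB of 28 days had a deposited median of 17.9, against 72.0 to 87.4 in the other PB arrays, 73.4 to 106 in the Saline arrays and 40.5 to 205 in the other controls. All 10 tested hepatocyte markers, among them albumin and transthyretin, lay above the floor in the PB and Saline arrays. Their summed signal in the PB arrays was 78740 at 4 h, 85274 at 20 h, 83313 at 14 days and 131690 at 28 days. In the Saline arrays it was 76615 to 84176. In the other controls it was 92950 to 105958 at 4 h and 101364 to 108655 at 20 h, above PB and Saline at both times. At 14 days those controls had 82944 to 86543, and at 28 days 104949 to 108475. Of the bile duct markers with a probe set of their own, 0 passed the filter. In pooled tissue, fewer cells of a type and less RNA per cell cannot be told apart.

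The labels were in doubt at 20 h, where the array labelled Saline, not the array labelled PB, had the high Cyp2b10 signal. One descriptive field of the labels was also uneven, since the words for a non-genotoxic hepatocarcinogen stood on the PB array at 20 h and 28 days but on the Saline array at 4 h and 14 days. Labels were kept as deposited. The 20 h array is therefore called "the array labelled Saline", and its results are given beside those against the other saline controls.

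Cyp2b10, which encodes the main phenobarbital-inducible P450 of mouse liver, rose at 4 h. Its log2 signal was 11.98 in the PB array, 8.28 in the Saline array and 6.49, 6.81 and 7.26 in the ENU, DMN and DPN controls. The PB array stood above all 4 saline-treated arrays of that time, and the Saline array stood between it and the other 3. The difference from Saline was 3.70 on the log2 scale (SE 0.39, limma adjusted p 0.00157), or 13.0-fold, and the difference from the other saline controls was 5.13 (SE 0.32, limma adjusted p 1.98e-06), or 34.9-fold. With the Saline arrays counted as a 4th control of each time, which puts the 20 h array among the replicates, the latter was 4.77 with a limma adjusted p of 1. Of 3 Cyp2b10 probe sets, 2 were called against Saline at 4 h (differences 3.70 and 3.55) and the other had 3.67 with an adjusted p of 1. The 2 called ones were the only probe sets called in that comparison, 0.0125% of those tested. Both carry the suffix that the manufacturer gives to probe sets matching several transcripts, so other Cyp2b genes may add to their signal.

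At 20 h the order was turned. Cyp2b10 had a log2 signal of 8.25 in the PB array, 11.48 in the array labelled Saline and 7.26, 6.99 and 6.80 in the other saline controls. The PB array lay above those 3 and far below the array labelled Saline. PB minus Saline was -3.24 (SE 0.39, limma adjusted p 0.0076, and 0.0693 without the DPN controls), PB minus the other controls was 1.23 (SE 0.32, adjusted p 0.405), and the array labelled Saline lay 4.47 above those controls (SE 0.32, adjusted p 1.18e-05), or 22.1-fold. Among all 52 arrays, 5 had a Cyp2b10 signal above 11: PB at 4 h, the array labelled Saline at 20 h, o-aminoazotoluene (AAT) at 4 h (11.65) and 20 h (11.99), and DPN at 4 h (11.62). The other 47 arrays reached at most 8.88, and the PB array of 20 h was among these.

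By 14 and 28 days Cyp2b10 in the PB arrays was close to Saline. At 14 days it was 7.32 in PB, 7.13 in Saline and 6.72, 6.04 and 6.51 in the other controls. At 28 days it was 7.49 in PB, 7.41 in Saline and 6.19, 5.85 and 6.05 in the other controls. PB and Saline differed by 0.19 and 0.08 (SE 0.39 each), and both lay above the other 3 controls at both times. The difference from the other saline controls was larger at 4 h than at each later time, by 3.89 against 20 h (SE 0.45, limma adjusted p 0.00469), 4.23 against 14 days (SE 0.45, adjusted p 0.00356) and 3.67 against 28 days (SE 0.45, adjusted p 0.0094). Across all probe sets 0.0125% were called in the first of these tests and 0.025% in each of the others. The first uses the array labelled PB of 20 h, and the labels of that time are in doubt. The array labelled Saline of 20 h lay 4.47 above the other saline controls of that time. All 3 calls of Cyp2b10 were lost without the ENU controls (adjusted p 0.0762, 0.0887 and 0.133), while the differences stayed at 3.59, 3.90 and 3.40. Without the DPN controls those against 20 h and 28 days were lost too (adjusted p 0.0638 and 0.128).

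**Figure D1:**
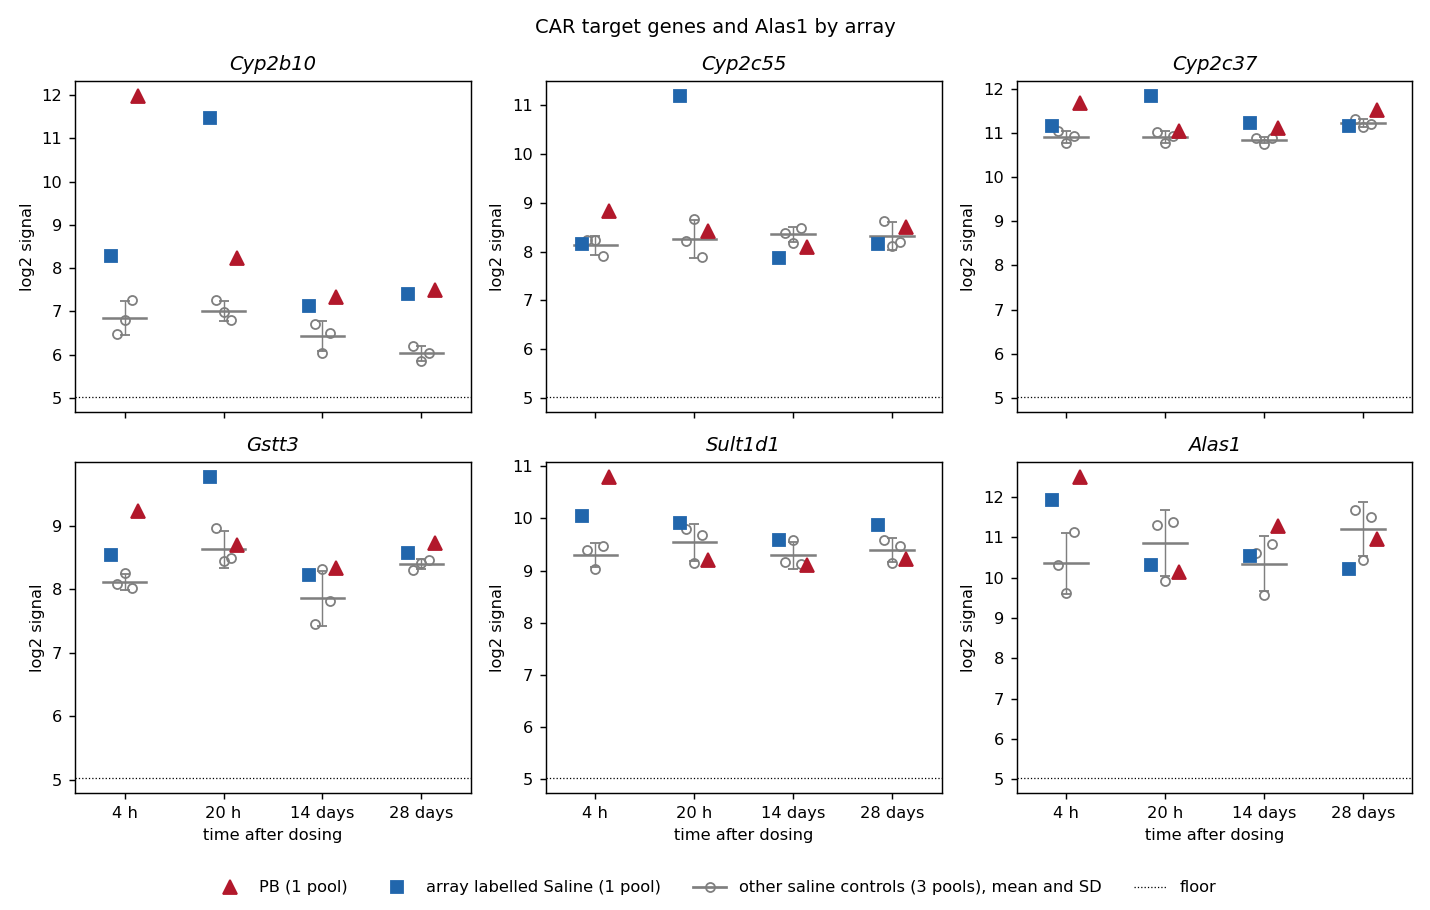
Log2 signal (y axis) of 5 CAR target genes and of Alas1 at each time (x axis), with the PB array as a triangle, the array labelled Saline as a square, the 3 other saline controls as open circles with their mean and SD, and the floor as a dotted line. Cyp2b10 stands at 11.98 in the PB array of 4 h and at 11.48 in the array labelled Saline of 20 h, and Cyp2c55 at 8.84 and 11.19 in the same arrays.

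Of the other P450 enzymes, 0 passed the test against Saline at 4 h. The list of CAR and PXR target P450 genes had 20 members, of which 13 passed the filter on low values; Cyp2b13, Cyp2c65 and Cyp3a16 did not, and Cyp2a4, Cyp2a5, Cyp3a41a and Por had no probe set of their own. At 4 h 12 of the 13 lay above Saline, against 5587 of all 9641 genes, with a median difference of 0.26 against 0.04. The PB array was above all 4 saline-treated arrays for 7 of the 13, against 19.2% of all genes, and below all of them for 0, against 16.8%. Only Cyp2b10 was at least 2-fold above Saline, against 0.851% of all genes, and only it passed the test.

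Cyp2b9, a female-predominant Cyp2b enzyme, had 6.97 in PB at 4 h, 6.12 in Saline and 6.31, 5.27 and 5.20 in the other controls. Cyp2c55 had 8.84 in PB, 8.15 in Saline and 8.25, 8.25 and 7.91 in the other controls. Cyp2c37 had 11.68, 11.16 and 11.03, 10.76 and 10.93. In these 3 genes the PB array was highest by 0.52 or more, and the differences from Saline of 0.84 (SE 0.67), 0.69 (SE 0.34) and 0.52 (SE 0.18) did not pass the test, with an adjusted p of 1 in each. Cyp3a11, the main Cyp3a enzyme of mouse liver and a target of PXR, had 12.86 in PB, 12.84 in Saline and 13.33, 13.16 and 13.13 in the other controls, so PB and Saline differed by 0.03 (SE 0.15) and both lay under the other 3. Cyp2c29 showed the same order, with 12.65 in PB, 12.46 in Saline and 12.94 to 12.98 in the other controls.

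At 20 h the P450 genes were lower in the array labelled PB than in the array labelled Saline. All 13 lay under it, against 4279 of all 9641 genes, with a median of -0.24 against 0.04. Of the 13, 2 were at least 2-fold lower (Cyp2b10 and Cyp2c55), against 0.934% of all genes. Cyp2c55 had 8.43 in PB, 11.19 in the array labelled Saline and 8.22, 8.66 and 7.88 in the other controls. The PB value lay among those of the other controls, and the array labelled Saline lay alone. PB minus Saline was -2.76 (SE 0.34, limma adjusted p 0.00781), a call lost without the ENU controls (adjusted p 0.178) or the DPN controls (adjusted p 0.0693). Cyp2c37 had 11.04 in PB, 11.83 in the array labelled Saline and 11.01, 10.76 and 10.93 in the other controls. The array labelled Saline was above the 3 other controls for 9 of the 13 P450 genes, against 19.4% of all genes, and the array labelled PB for 4 of 13, against 19.2%. Compared with those controls, the array labelled Saline had 3 called P450 genes, against 0.0938% of all probe sets tested, Cyp2b10, Cyp2c55 (2.93, SE 0.28, adjusted p 0.00034) and Cyp2c37 (0.93, SE 0.15, adjusted p 0.0341), and the array labelled PB had 0 called, against 0.0188%. The call of Cyp2c37 was lost without the ENU controls (adjusted p 0.335) or the DPN controls (adjusted p 0.492).

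At 14 days 7 of the 13 P450 genes lay above Saline and 6 below, with a median of 0.00 against -0.04 over all genes. At 28 days 12 lay above, against 6078 of all 9641 genes, with a median of 0.31 against 0.11. The 3214 brightest genes of the 9641 had a median of 0.22 at 28 days. With quantile normalization the list median at 28 days was 0.03, while at 4 h it was 0.19. No P450 gene passed the test at 14 or 28 days.

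**Figure D2:**
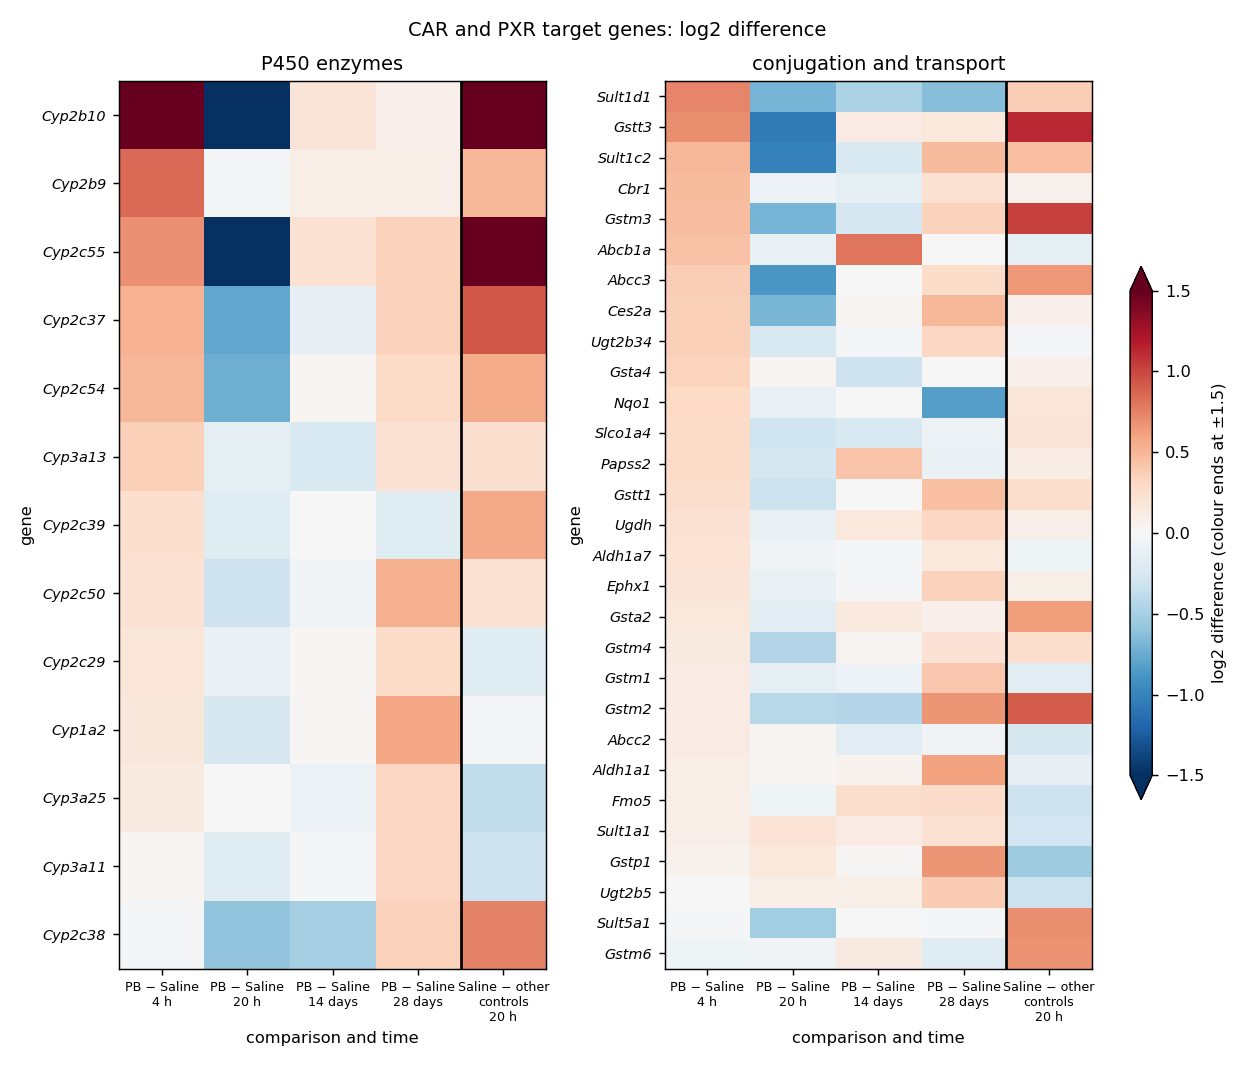
Log2 differences of the 13 tested P450 genes (left) and the 29 tested conjugation and transport genes (right), with PB minus Saline at the 4 times and, right of the black line, the array labelled Saline minus the mean of the 3 other controls at 20 h; colours end at 1.5 either way. Cyp2b10 and Cyp2c55 are high at 4 h (3.70 and 0.69) and low at 20 h (-3.24 and -2.76), where the array labelled Saline is itself above the other controls by 4.47 and 2.93.

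Enzymes of conjugation and transporters make drugs soluble and export them. Of 41 members of this list 29 were tested; Sult1e1, Sult3a1 and Cbr3 did not pass the filter and 9 had no probe set of their own. At 4 h 27 of the 29 lay above Saline, against 5587 of all 9641 genes. Their median was 0.21, against 0.04 over all genes. The PB array was above all 4 saline-treated arrays for 14 of 29 (background 19.2%) and below all of them for 0. None was 2-fold higher or lower than Saline, and 0 passed the test.

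The sulfotransferase gene Sult1d1 had 10.78 in PB at 4 h, 10.05 in Saline and 9.39, 9.04 and 9.48 in the other controls. The PB array was the highest of the 5, as it was for 19.2% of all genes. Its second probe set passed the test against the other saline controls (1.55, limma adjusted p 0.0293) and the first did not (1.48, SE 0.27, adjusted p 0.0587). Papss2, which makes the sulfate donor, likewise had 1 of 3 probe sets called (1.26, adjusted p 0.00547), while its brightest one had 0.74 (SE 0.20, adjusted p 0.225). Gstt3, a theta glutathione transferase, had 9.23 in PB, 8.54 in Saline and 8.09, 8.25 and 8.01 in the other controls. For the mu glutathione transferase Gstm3 the values were 10.64, 10.17 and 10.22, 10.20 and 9.58. The carbonyl reductase Cbr1 had 9.59, 9.12 and 8.77, 8.92 and 8.54. In all 3 genes the PB array was the highest of the 5, and their differences from Saline of 0.70 (SE 0.34), 0.47 (SE 0.37) and 0.47 (SE 0.23) did not pass the test.

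At 20 h 23 of the 29 conjugation and transport genes lay below the array labelled Saline, against 4279 of all 9641 genes. Their median was -0.13, against 0.04 over all genes. The PB array was below all 4 saline-treated arrays for 10 of 29, against 19.3% of all genes, and above all of them for 1, against 14.7%. Gstt3 (8.70 in PB, 9.76 in the array labelled Saline, 8.96, 8.44 and 8.49 in the other controls) and the sulfotransferase Sult1c2 (5.94, 6.95 and 6.75, 6.40 and 6.38) were at least 2-fold below that array. The export pump gene Abcc3 had 9.62 in PB, 10.49 in the array labelled Saline and 9.94, 9.88 and 9.69 in the other controls. The array labelled Saline was above the 3 other controls for 14 of the 29 genes, against 19.4% of all genes. The array labelled PB was above them for 5 of 29, against 19.2%. No member of the list passed the test at 20 h, 14 days or 28 days in PB minus Saline or in PB minus the other controls.

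At 14 days the median of these genes was 0.00 and the PB array was above all 4 saline-treated arrays for 12 of 29, against 16.3% of all genes, and below all of them for 1, against 15.5%. Abcb1a, an export pump, had the largest of these differences from Saline (0.80). The Saline array was itself above the 3 other controls for 17 of 29 at that time, against 35.5% of all genes. At 28 days the median was 0.23, with 6 of 29 above all 4 arrays, against 22% of all genes, and 1 below, against 16.3%, and with quantile normalization the median was 0.00. Nqo1, a quinone reductase, was the member below, with 5.88 in PB, 6.70 in Saline and 6.17, 5.98 and 6.55 in the other controls.

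**Figure D3:**
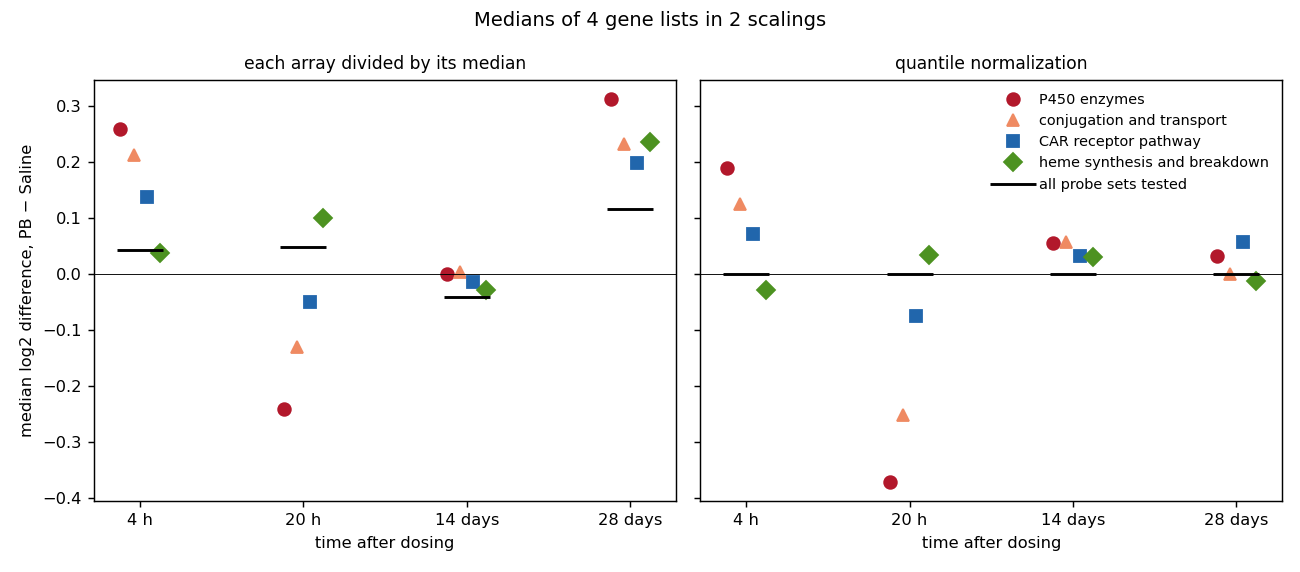
Median log2 difference of PB minus Saline (y axis) at each time (x axis) for 4 gene lists and, as a black bar, for all probe sets tested, with arrays divided by their medians (left) or quantile normalized (right). The P450 list has 0.26 and -0.24 at 4 h and 20 h on the left and 0.19 and -0.37 on the right, while its 0.31 at 28 days is 0.03 on the right.

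Genes that carry the phenobarbital signal were examined next. Of 25 members of the CAR receptor pathway 20 were tested and 0 passed against Saline at any time. Nr1i3, the gene for CAR, had 9.63 in PB at 4 h, 9.20 in Saline and 9.24, 8.69 and 9.17 in the other controls. Nr1i2, the gene for PXR, had 8.01, 7.79 and 7.73, 6.78 and 7.15. In both genes the PB array was the highest of the 5 at 4 h, with differences from Saline of 0.43 (SE 0.45) and 0.22 (SE 0.47), under 1 SE. Later, Nr1i3 in PB was below the array labelled Saline at 20 h, and it differed from Saline by -0.40 at 14 days and -0.52 at 28 days. For Nr1i2 the difference was -0.51 at 20 h and -0.65 at 28 days, there below all 4 saline-treated arrays, while at 14 days PB was above Saline. Ahr, the dioxin receptor, was above all 4 saline-treated arrays at each of the 4 times, by 0.46, 0.31, 0.15 and 0.26 over Saline in order of time, with SE 0.30. The median of the pathway was 0.14 at 4 h, -0.05 at 20 h, -0.01 at 14 days and 0.20 at 28 days.

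Alas1, the rate-limiting enzyme of heme synthesis, had 12.49 in PB at 4 h, 11.93 in Saline and 10.30, 9.62 and 11.14 in the other saline controls. PB and Saline were both above the other 3, which spread from 9.62 to 11.14. The difference from Saline was 0.56 (SE 0.81), and a second, dimmer Alas1 probe set had -0.12. At 14 days Alas1 was 11.28 in PB against 10.53 in Saline, and at 28 days 10.95 against 10.22, where 2 of the other controls were higher still (11.67 and 11.51). Of 12 heme genes 11 were tested, with medians of 0.04, 0.10, -0.03 and 0.24 in order of time, and 0 passed the test.

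The contrast of PB with the other saline controls had 20 called probe sets at 4 h, 11 higher and 9 lower, or 0.125% of those tested, and 5 of them were of Cyp2b10, Papss2 and Sult1d1. Of the others, Hsd3b5, Id2 and Got1 are named here after their values were seen. Nr1d1, the clock repressor REV-ERB alpha, had 5.54 in PB, 6.63 in Saline and 8.36, 8.15 and 7.84 in the other controls. It fell by 2.58 against those controls (SE 0.26, limma adjusted p 0.000609), while PB minus Saline was -1.09 (SE 0.32, adjusted p 1). Hsd3b5, a male-predominant steroid dehydrogenase of liver, had 10.22 in PB, 10.58 in Saline and 11.62, 11.73 and 11.31 in the other controls, and Id2, an inhibitor of helix-loop-helix factors, had 8.34, 9.39 and 9.96, 10.08 and 10.51. They fell by 1.33 (SE 0.15, adjusted p 0.00225) and 1.85 (SE 0.26, adjusted p 0.0132) against the other controls.

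Got1, an aminotransferase, rose by 1.46 on the same comparison (SE 0.24, adjusted p 0.0346), with 12.11 in PB, 12.05 in Saline and 10.35 to 10.87 in the other controls. The Saline array thus lay beside PB for Got1 and between PB and the other controls for Nr1d1, Hsd3b5 and Id2. In Saline minus the other controls 4 probe sets were called at 4 h (0.025%). The count of 20 for PB was 2 without the ENU controls, 5 without the DPN controls, 40 without the DMN controls and 0 with Saline as a 4th control. The calls of Nr1d1 (adjusted p 0.0717), Hsd3b5 (0.131), Id2 (0.0717) and Got1 (0.0719) were among those lost without the ENU controls, and those of Id2 (0.183) and Got1 (0.186) were also lost without the DPN controls.

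Ranked by the gap between the PB array of 4 h and the nearest of the 4 saline-treated arrays, Cyp2b10 came first among genes above, and Cxcr2 and Ddit4 followed. Cxcr2, a neutrophil chemokine receptor, had 6.74 in PB, 5.29 in 1 control and the floor in the other 3 arrays, so it stood at least 3.28-fold above Saline. Ddit4, an inhibitor of mTOR signalling, had 8.73 in PB, 7.58 in Saline and 6.20, 7.16 and 6.98 in the other controls. Among genes below, Cklf, a chemokine-like factor, was at the floor in PB and at 6.88 to 7.54 in the others, but 3 other probe sets of it differed from Saline by 0.02 or less. The chemokine Cxcl1 had 5.83 in PB, 6.98 in Saline and 8.34, 8.93 and 11.24 in the other controls. Derl3, of endoplasmic reticulum degradation, had 5.07, 6.24 and 7.18 to 7.44. None of these passed the test against Saline, and Derl3 passed against the other controls (-2.25, SE 0.39, adjusted p 0.0445), a call lost without any 1 of the 3 control sets, without the variance trend and with the wider filter (above the floor in at least 4 of the 52 arrays).

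Other pathways at 4 h were described by their lists. Of 16 tested genes of gluconeogenesis and fasting, the PB array was above all 4 saline-treated arrays for 9 and below for 0 (background 19.2% and 16.8%). The median was 0.11 against Saline. The Saline array was itself above the 3 other controls for 10 of the 16, against 1846 of all 9641 genes. Against those controls the median was 0.35 for Saline and 0.40 for PB. G6pc, the last enzyme of glucose release, had 11.41 in PB, 10.83 in Saline and 10.43 to 10.71 in the other controls. Fatty acid synthesis had 8 of 17 above and 0 below, and the Saline array was above the 3 other controls for 9 of 17. Here the medians against those controls were 0.21 for Saline and 0.36 for PB. The acute phase list had 0 of 26 above and 9 below, with a median of -0.07 against Saline and -0.52 against the other controls, and the Saline array was below the 3 other controls for 15 of 26, against 32.1% of all genes. Saa2, an acute phase serum amyloid, had 8.49 in PB, 11.12 in Saline and 8.91, 12.46 and 12.72 in the other controls, so its controls spanned the difference. Cyp7a1, the rate-limiting enzyme of bile acid synthesis, had 11.70, 10.89 and 9.96, 10.05 and 9.58. Of these members none passed the test. Kupffer cell markers were also lower beside the acute phase list: the PB array was below all 4 saline-treated arrays for 7 of 12, against 16.8% of all genes, with a summed signal of 3123 in PB, 3244 in Saline and 4314 to 5037 in the other controls, and its part in the result was not tested.

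At 20 h, outside the P450 genes, Myo9b, an unconventional myosin, fell in the PB array against both kinds of control. It had 5.18 in PB, 7.27 in the array labelled Saline and 7.57, 7.26 and 7.22 in the other controls. The difference was -2.09 against the array labelled Saline (SE 0.29, limma adjusted p 0.0234), 1 of 4 probe sets called there (0.025%), and -2.17 against the other controls (SE 0.24, adjusted p 0.005). Both calls were lost without the ENU controls (adjusted p 0.258 and 0.154) or the DPN controls (0.386 and 0.279), and the first also without the DMN controls (0.107). Tns2, a tensin of cell adhesions, was at the floor in PB, at 6.42 in the array labelled Saline and at 7.19, 6.74 and 7.06 in the other controls, at least 3.92-fold below those controls (adjusted p 0.0142, and 0.32 and 0.92 without the ENU or DPN controls). The 3 probe sets called in PB minus the other controls (0.0188%) were these and Cyp4a14. The array labelled Saline had 15 called against the same controls (0.0938%), among them, chosen after their values were seen, Foxm1 (-1.87, adjusted p 0.0494) and Id2 (-1.85, adjusted p 0.0225) on the lower side. Foxm1, a factor of cell division, was at 7.13 in PB, at the floor in the array labelled Saline and at 6.61, 7.24 and 6.84 in the other controls, so the PB array was among the other controls and the array labelled Saline was not. Its call was lost without the ENU controls (adjusted p 0.405) or the DPN controls (0.449), with quantile normalization, with the wider filter and without the variance trend.

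Values at 20 h depended on the control used. Fasn, the fatty acid synthase, had 10.94 in PB, 9.85 in the array labelled Saline and 11.24, 10.47 and 10.46 in the other controls. The acute phase genes Lcn2 (9.95, 7.06 and 5.90, 8.49 and 10.90) and Saa2 (12.38, 9.85 and 8.74, 12.68 and 12.66) were at least 2-fold above the array labelled Saline, against 0.923% of all genes, and within the range of the other controls. Endothelial markers were above all 4 saline-treated arrays for 8 of 12, against 14.7% of all genes, with a summed signal of 1891 in PB, 1822 in the array labelled Saline and 1451 to 1611 in the other controls. Sesn2, a stress-induced regulator of mTOR, was at the floor in PB and at 6.76 in the array labelled Saline, with 5.13 to 6.63 in the other controls. None of these passed the test.

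**Figure D4:**
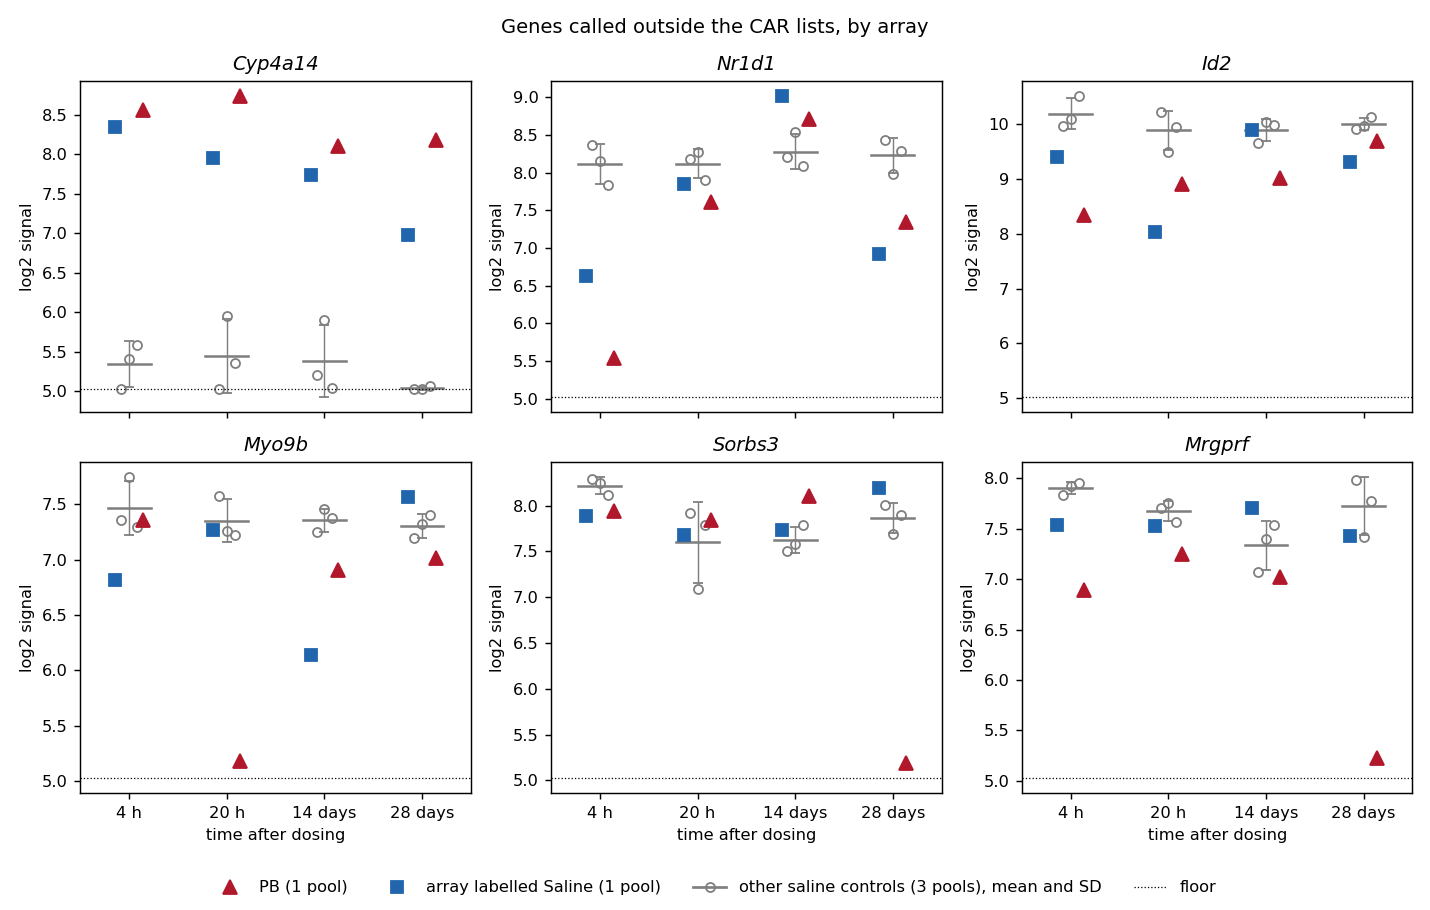
Log2 signal (y axis) at each time (x axis) of 6 genes called in a comparison of the PB arrays outside the CAR lists, with symbols as in the plot of CAR target genes. Cyp4a14 is high in PB and Saline at every time, Nr1d1 and Id2 are low in PB at 4 h (5.54 and 8.34), Myo9b at 20 h (5.18), and Sorbs3 and Mrgprf at 28 days (5.19 and 5.22).

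Cyp4a14, a fatty acid hydroxylase that PPAR alpha controls, was high in the PB and Saline arrays at all 4 times. It had 8.55, 8.73, 8.11 and 8.17 in PB in order of time, 8.34, 7.95, 7.74 and 6.98 in Saline, and 5.02 to 5.95 in the 12 other controls. The PB and Saline arrays never overlapped with the other controls. Some of those controls were at the floor at 4 h and 28 days, so differences from them at these times are lower bounds. PB minus those controls was 3.21 at 4 h (SE 0.38, limma adjusted p 0.0026), 3.29 at 20 h (adjusted p 0.005), 2.72 at 14 days (adjusted p 0.0833) and 3.14 at 28 days (adjusted p 0.00344), and each of the 3 calls was lost without the ENU controls (adjusted p 0.0719, 0.154 and 0.0709), without the DPN controls (0.0636, 0.279 and 0.101) and with Saline as a 4th control. PB minus Saline was 0.22, 0.78, 0.37 and 1.20 (SE 0.46) and did not pass at any time. The Saline array passed the same test at 4 h (7.98-fold, adjusted p 0.0223) and 20 h (5.67-fold, adjusted p 0.0341), calls also lost without the ENU controls (0.385 and 0.369) or the DPN controls (0.165 and 0.345). The high level was thus shared by PB and Saline.

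At 14 days 0 probe sets passed against Saline (0%), with 398 at an unadjusted p under 0.05 and a lowest adjusted p of 0.127 from limma, and 0 against the other saline controls (0%), with 1607 at an unadjusted p under 0.05. Genes at least 2-fold above Saline were 0.799% and below 0.809% of all. Sfrp1, a secreted Wnt antagonist, was at the floor in PB, at 8.50 in Saline and at 7.52, 8.68 and 8.49 in the other controls, at least 11.1-fold below Saline (adjusted p 1). A second, dimmer probe set of Sfrp1 was 0.18 above Saline. Cotl1, an actin-binding protein, had 6.47 in PB and 8.09 to 8.51 in the 4 saline-treated arrays, while its 3 other probe sets were within -0.13 and 0.19 of Saline and 1 of them was 1.04 above the other controls. Egr1, an immediate early factor, had 5.99 in PB, 7.41 in Saline and 7.11, 8.39 and 7.15 in the other controls. All 17 tested genes of cholesterol synthesis lay below Saline, against 5348 of all 9641 genes. Their median was -0.31, against -0.04 over all genes, and 6 of 17 were below all 4 saline-treated arrays (background 15.5%). The other 11 lay inside the range of those 4 arrays. Against the other controls their median was 0.19 for Saline and -0.17 for PB, where all genes had 0.08 and 0.06. In the Saline array 1 probe set was called against the other controls (0.00625%), a second probe set of Mdh1 (1.90), whose brightest probe set had 0.22.

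At 28 days 3 probe sets fell against Saline (0.0188%), each in the array with the low deposited median. Sorbs3, a cell adhesion adaptor, had 5.19 in PB, 8.19 in Saline and 8.01, 7.69 and 7.90 in the other controls. Lasp1, an actin-binding protein, had 7.25 in PB, 10.22 in Saline and 10.32 to 10.36 in the other controls, and Mrgprf, an orphan receptor, had 5.22, 7.43 and 7.98, 7.42 and 7.77. PB minus Saline was -3.01 (SE 0.34, limma adjusted p 0.00615), -2.97 (SE 0.35, adjusted p 0.00615) and -2.20 (SE 0.30, adjusted p 0.0231). For Lasp1 this was 1 of 9 probe sets, and the other 8 were within -0.45 and 0.11 of Saline. All 3 calls were lost without the DPN controls (adjusted p 0.407, 0.454 and 0.474), those of Sorbs3 (0.091) and Mrgprf (0.175) also without the ENU controls, and that of Mrgprf without the DMN controls (0.0663).

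Compared with the other saline controls, 8 probe sets were called at 28 days (0.05%), 1 higher (Cyp4a14) and 7 lower. Besides the 3 genes above, the lower ones were of Rbbp4 (-2.44), 1810021B22Rik (-1.98), Tmem144 (-2.69) and Pigu (-1.88), and these genes were chosen after their values were seen. The called probe set of Rbbp4 had 7.08 in PB, 8.36 in Saline and 9.38 to 9.63 in the other controls. For 1810021B22Rik the values were 5.12, 5.94 and 6.73 to 7.35, and for Tmem144 5.02, 6.93 and 7.35 to 8.05. Pigu had 5.94, 7.64 and 7.53 to 8.18. The Saline array was thus itself below the other controls for all but Pigu. For Rbbp4 the other 2 probe sets gave -0.27 and -1.27, for Tmem144 the other 2 gave -0.36 and -0.09, and for Pigu the other gave -0.24. All 8 calls were lost without the DPN controls, and 4 were counted without the ENU controls, 38 without the DMN controls and 4 with Saline as a 4th control. The Saline array had 0 called (0%), with 1746 at an unadjusted p under 0.05. Genes at least 2-fold below Saline were more numerous than at other times, 149 (1.55%) against 89 above (0.923%). Of genes above, Met, the receptor of hepatocyte growth factor, had 7.91 in PB, 6.63 in Saline and 6.58, 7.18 and 6.96 in the other controls, and Irs2, an insulin receptor substrate, had 6.96, 5.98 and 5.51, 5.81 and 5.85. Apoa2, a secreted liver protein, had 14.43 in PB, 13.31 in Saline and 13.96 to 14.06 in the other controls (limma adjusted p 0.0715 against Saline, and 0.0297 with no floor). Of the hepatocyte markers, 7 of 10 were above all 4 saline-treated arrays, against 22% of all genes. Of 26 tested acute phase genes, 4 were above all 4 arrays and 4 below. The summed hepatocyte marker signal was 78568 in Saline and 104949 to 108475 in the other controls, against 131690 in PB, and its part in the list medians was not tested.

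Over the 4 times together, with time as a block, 0 probe sets differed between PB and Saline (0%), with 794 at an unadjusted p under 0.05 and a lowest limma adjusted p of 0.527. Hoxc9, a homeobox factor, had that value, with a mean difference of -1.21 (SE 0.17) and single differences of -1.01, -1.37, -1.02 and -1.43, the PB array of 20 h being at the floor. Against the other controls it had 0.53, -0.24, -0.58 and -0.83, so at 4 h the PB array was above them. No gene was above Saline by 0.5 or more at all 4 times, and 2 were below, Hoxc9 and Klc1, a kinesin light chain. Tfrc, the transferrin receptor, had a mean of 0.47 (SE 0.10, adjusted p 0.882) and lay above Saline each time. Leaving out any single time left 0 calls, and without 20 h and 28 days together 2 were called, Dock9 and Vcam1, which were chosen after their values were seen.

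Cdkn1a, the cell cycle inhibitor p21 that p53 induces after DNA damage, was near Saline in the PB arrays. It had 5.47, 6.28, 5.22 and 6.43 in PB in order of time, and 5.70, 6.19, 5.04 and 6.19 in Saline. The differences were -0.24, 0.10, 0.18 and 0.24 (SE 0.71), each under 1 SE. Of 19 tested p53 targets, 0 passed the test at any time. At 4 h 3 were above all 4 saline-treated arrays, against 19.2% of all genes, and 8 were below, against 16.8%. The Saline array of 4 h was itself below the 3 other controls for 10 of the 19, against 32.1% of all genes. The median of PB minus Saline at 4 h was -0.04. At 4 h 1 of the 19, Ddit4, was at least 2-fold above Saline (1.15), against 0.851% of all genes, and 0 were at least 2-fold below, against 0.653%. At 20 h 1 of the 19, Sesn2, was at least 2-fold below the array labelled Saline (-1.74), against 0.934%, and 0 were at least 2-fold above. At 14 and 28 days 0 differed 2-fold either way.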

How the data were processed

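Livers were profiled on 52 Affymetrix arrays, of which 20 entered the fits, and the values were taken from 1 deposited table of 22690 probe sets. Its values are intensities on a linear scale as deposited by the authors. The software and the scaling behind them were not given in the sources used here. Deposited array medians ran from 17.9 to 205. The study names the array as Mu74A V2, whereas the probe set names belong to another Affymetrix mouse array. After 64 control probe sets were left out, each array was divided by its median, multiplied by the mean of the medians, floored at the 30th percentile (a signal of 32.5) and set on the log2 scale. Platform annotation gave 1 symbol to 20380 probe sets, several to 691 and none to 1555. A gene is its tested probe set with the highest mean signal.

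Limma 3.58.1 in R 4.3.3 (lmFit, eBayes with variance trend, two-sided, Benjamini-Hochberg over 15992 probe sets) was fitted with 1 mean per group and time. This left 8 residual degrees of freedom, all from the other saline controls, whose replicates 1, 2 and 3 are the ENU, DMN and DPN sets at every time. That fit has no term for the set, also in the tests of 4 h against later times. The fit over all times used the PB and Saline arrays with time as a block and had 3. The fit was tested on simulated data, drawn with no control-set effect and no floor, so that test cannot speak to either. The members and lists were chosen with earlier results of these data known. Named genes were members of the CAR lists, the 10 genes each way with the widest gap between PB and the 4 saline-treated arrays at each time (at 20 h also over the 3 other controls), the 10 each way with the smallest p over all times, up to 4 members of other lists by difference from Saline, and Cdkn1a. Alternatives were quantile normalization, no floor, 2 other filters, no variance trend, Saline as a 4th control, each control set left out and each time left out. The alternatives without both 20 h and 28 days and with the control set as a block were chosen after seeing the data. No per-sample column was left unused. With pooled RNA, p-values of the fit with 1 mean per group and time measure the spread between arrays of different control sets, not between mice. Those of the fit over all times measure the spread of PB minus Saline between times. Precision is limited by having so few arrays.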

Additional observations from a re-analysis of the deposited data

Results flagged for a closer look

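The difference between PB and the other saline controls at 4 h was set against the same difference at each later time, and the test of the change over time passed in 7 results. For Cyp2b10 the difference was larger at 4 h than later. On the log2 scale it was larger by 3.89 against 20 h, 4.23 against 14 days and 3.67 against 28 days. All of these calls were lost without the ENU controls, and those against 20 h and 28 days also without the DPN controls. The value against 20 h rests on the array labelled PB, and the labels of that time are in doubt. The array labelled Saline of 20 h lay 4.47 above the same controls. For Nr1d1, low in the PB array of 4 h, the change was -3.02 against 14 days (limma adjusted p 0.00574). This call was lost without the ENU controls (adjusted p 0.335) or the DPN controls (0.109). For Hsd3b5 it was -1.46 against 14 days (adjusted p 0.0385) and -1.45 against 28 days (adjusted p 0.041), and both calls were lost with quantile normalization (0.147 and 0.0623), without the variance trend (0.24 and 0.204), without the ENU controls (0.906 and 0.52) and without the DPN controls (0.179 and 0.238), and the first also without the DMN controls (0.0755). A second probe set of Rbbp4, low in the PB array of 28 days, had 2.30 against 28 days (adjusted p 0.0177), and the call was lost without the variance trend (0.0919), the ENU controls (0.317) or the DPN controls (0.255). At 4 h the Saline array too was below the other controls for Nr1d1 (6.63 against 7.84 to 8.36). For Hsd3b5 it had 10.58 against 11.31 to 11.73. At 14 days the Saline array was above them for both genes (9.02 against 8.09 to 8.53, and 11.86 against 11.60 to 11.66). At 28 days it was below them for Hsd3b5 (11.51 against 11.90 to 11.98). That probe set of Rbbp4 had 8.36 in Saline at 28 days, against 9.38 to 9.63. The PB arrays were single arrays, so no group could be searched for an outlying sample.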

How the results depend on the processing

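Of 1109 alternative values for 122 gene results, 991 kept their direction and their side of the threshold, 98 lost the call, 19 gained one, 1 moved (Cyp2b10 at 28 days, from 0.08 to -0.01 with quantile normalization) and 0 called values changed direction. Counts of called probe sets moved more, and are given here in order of time. With the filter of 4 of 52 arrays, which adds probe sets at the floor in most of the 20 arrays, 45, 39, 88 and 102 were called in PB minus Saline, 84, 41, 108 and 116 in PB minus the other controls, 42, 50, 88 and 67 in Saline minus the other controls, and 42, 82 and 77 in 4 h minus the later times. With probe sets above the floor in all 20 arrays, PB minus Saline had 15 at 28 days, PB minus the other controls 31 at 4 h and 1 at 20 h, Saline minus the other controls 0 at 14 days and 5 at 28 days, and 4 h minus 28 days 7. With no floor, PB minus Saline had 26 and PB minus the other controls 43 at 28 days, and Saline minus the other controls 6 at 14 days and 11 at 28 days. Without the variance trend, PB minus the other controls had 6 at 4 h, PB minus Saline 1 at 14 days, Saline minus the other controls 2 at 4 h and 3 at 20 h, and 4 h minus 28 days 2. With Saline as a 4th control, PB minus the controls had 0, 0, 0 and 4. When each of the ENU, DMN and DPN control sets was left out in turn, PB minus Saline had 1 to 2, 1 to 3, 0 to 0 and 0 to 4, PB minus the other controls 2 to 40, 0 to 21, 0 to 45 and 0 to 38, Saline minus the other controls 0 to 5, 3 to 58, 0 to 372 and 0 to 46, and 4 h minus the later times 0 to 19, 0 to 6 and 0 to 36. Leaving out the DMN controls gave the highest count, or one tied for it, in each of these. Over all times, 2 were called without 20 h and 28 days. With quantile normalization the P450 median was -0.37 at 20 h, 0.056 at 14 days and 0.032 at 28 days, that of conjugation and transport -0.25 at 20 h and 0.00 at 28 days, that of the receptor pathway 0.072 at 4 h and 0.057 at 28 days, and that of heme -0.012 at 28 days. The causes were not tested. The ENU, DMN and DPN control sets recur at the 4 times. Deviations of controls from the mean of their time correlated over 0.1 in 8 of 18 pairs of the same set (5 of 6 for DMN, 2 of 6 for ENU and 1 of 6 for DPN). Of 12 controls, 10 correlated best with their own set. The sets are named in the titles at every time and so belong to the design, while the correlations come from the data. With the set as a replicate block (6 residual degrees of freedom), the fitted differences stay as they are, and PB minus Saline had 2, 5, 0 and 4 called, PB minus the other controls 86, 6, 1 and 27, Saline minus the other controls 25, 30, 5 and 46, and 4 h minus the later times 8, 9 and 35. Of 119 gene values under the block 112 kept their side of the threshold and 7 gained a call, among them Alas1, Cyp2c37 and Sult1d1 against the other controls at 4 h. That block takes no account of set effects in the PB and Saline arrays, which have 1 set. PB and Saline arrays were paired by time in the fit over all times. The median standard error of PB minus Saline was 0.35, and values at the floor are bounds.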
